A study of Mus musculus with 12 samples.

Results

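Interleukin ligands, their receptors and the proteins that intercept them were followed as 1 family of genes in the gonadal white fat of C57BL/6N mice, a common inbred strain. Members were all genes whose symbol begins with Il and a digit. They numbered 73 of the 32772 genes in either of 2 count tables, with 69 in the diet table, 67 in the PCN table and 63 in both. By role, 38 encode receptor chains, 27 ligands, 4 decoy receptors or binding proteins and 2 receptor antagonists. The other 2 are Il4i1, an amino acid oxidase named for its induction by interleukin-4, and Il1bos, an antisense transcript.

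There were 4 groups of 3 RNA sequencing libraries, and all mice began their diet at 6 weeks of age and stayed on it for 18 weeks. HFD PCN mice ate a high-fat diet and received PCN, a synthetic steroid known as a rodent pregnane X receptor agonist, at 50 mg/kg into the abdominal cavity once a day for 4 days. HFD Vehicle mice ate the same diet and received 30% DMSO in corn oil on the same schedule. HFD mice ate the high-fat diet with no injection named in the labels, and Chow mice ate regular chow, also with none. No transgene or allele is named for any group.

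Interleukins are secreted cytokines that bind receptor chains on the surface of other cells, and many receptors share a chain, such as Il6st (gp130), the common gamma chain Il2rg or the accessory protein Il1rap. Some proteins of the family stop a signal: the antagonist Il1rn occupies the interleukin-1 receptor without activating it, the decoys Il1r2 and Il13ra2 bind ligand with little or no signalling of their own, and Il18bp captures interleukin-18 outside the cell. In white fat, macrophages, lymphocytes, stromal cells and adipocytes are all known to make or sense interleukins, and obesity is known for a gain of macrophages in the tissue.

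Total counts ran from 11090117 to 27408092 per library, and members together took 908 to 1718 CPM (counts scaled to the size of the library). Mitochondrial ribosomal RNA took 6.05% to 28.7% of the counts in Chow libraries, 7.49% in HFD Vehicle 50 and 1.4% to 2.54% in all others, so this share and the diet cannot be told apart. HFD Vehicle 50 differed from the other libraries of its group. Over 41 members with a mean of at least 1 CPM, its median absolute log2 difference was 0.942 from the HFD mean and 0.378 from the Chow mean, while HFD Vehicle 23 and HFD Vehicle 55 were at 0.271 and 0.294 from the HFD mean. The source label names duodenum and the title gonadal fat; the 7 adipocyte markers in both tables summed to 5939 to 19042 CPM in the 12 libraries, and the 6 intestinal epithelial markers to 9.72 to 48.3 CPM.

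**Figure D1:**
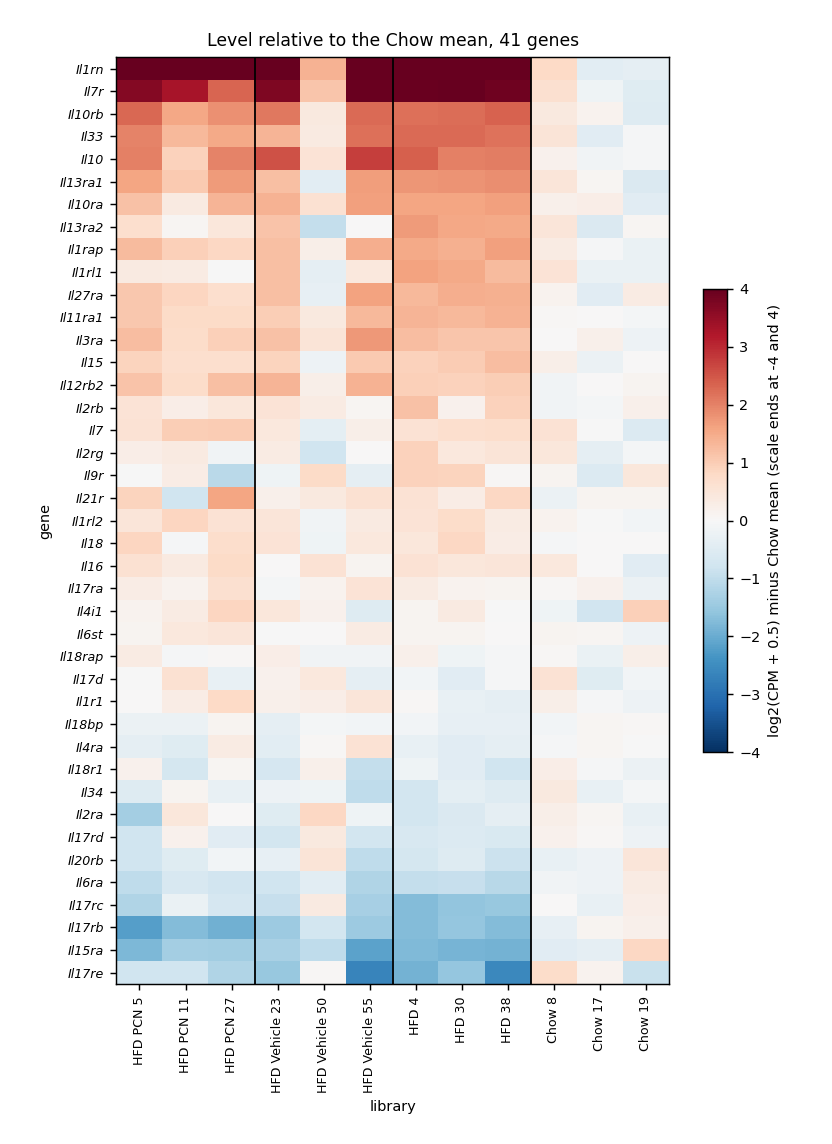
Levels of 41 members with a mean of at least 1 CPM in each of the 12 libraries (columns, in 4 groups), as log2(CPM + 0.5) minus the Chow mean, red above and blue below it. HFD Vehicle 50 is paler than the other high-fat diet libraries in most rows, with a median absolute difference of 0.378 from the Chow mean.

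The first comparison set HFD against Chow, which asks what the high-fat diet changed. Members divided into a larger set that rose and a smaller set that fell. The strongest rise was that of the antagonist Il1rn, followed by the ligand Il10 and the receptor Il7r, and the strongest falls were those of 3 receptors of the interleukin-17 family and of Il15ra. Among 69 members counted here, 44 had enough counts to be tested with edgeR over 16216 genes, and 28 (63.6%) passed an adjusted p of 0.05, against 59.8% of all genes tested. Of the 44, 17 (38.6%) rose and 11 (25%) fell, against 29.8% and 30% of all genes. These shares of all genes are the background for every count of a family or list in this comparison. In a fit of all 12 libraries together 16 rose and 5 fell. The libraries of HFD and Chow did not overlap for 32 members (72.7%), against 68.7% of all genes, so the share of members that changed was close to the background. The median log2 fold change of the 44 was 0.47, beside -0.03 over all genes. Members that were too low to test are given further on by their counts.

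These are levels in RNA of the tissue as a whole, where fewer cells of a type and less RNA per cell cannot be told apart. Of the marker lists, 11 of 12 macrophage genes rose, with a summed level of 7325 to 8134 CPM in HFD fat and 602 to 1427 CPM in Chow fat, and 8 of 9 mast cell genes rose, at 260 to 362 CPM in HFD fat and 20.9 to 39.8 CPM in Chow fat. Of the stromal progenitor genes 7 of 8 rose. Adipocyte genes fell in 8 of 9 cases, at 7011 to 8834 CPM in HFD fat and 16361 to 20984 CPM in Chow fat, and all 7 endothelial genes fell, at 481 to 494 CPM in HFD fat and 1222 to 1312 CPM in Chow fat. Among T and NK cell genes 1 of 13 tested, Trac, rose (log2 fold change 1.06, SE 0.26) and none fell. The median log2 fold change of the 13 was 0.87. Adgre1, the macrophage antigen F4/80, rose to 960 ± 26.4 CPM in HFD fat, against 47.6 ± 24.3 CPM in Chow fat, and the adipocyte hormone Adipoq fell to 425 ± 91.7 CPM in HFD fat, against 1772 ± 377 CPM in Chow fat. Cd3e of T cells averaged 1.12 ± 0.504 CPM in HFD fat and 1.15 ± 0.26 CPM in Chow fat and did not pass (log2 fold change -0.17, SE 0.40, below the median of its list). No gene of these lists was at 0 in both groups, and their part in the results on interleukins was not tested.

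**Figure D2:**
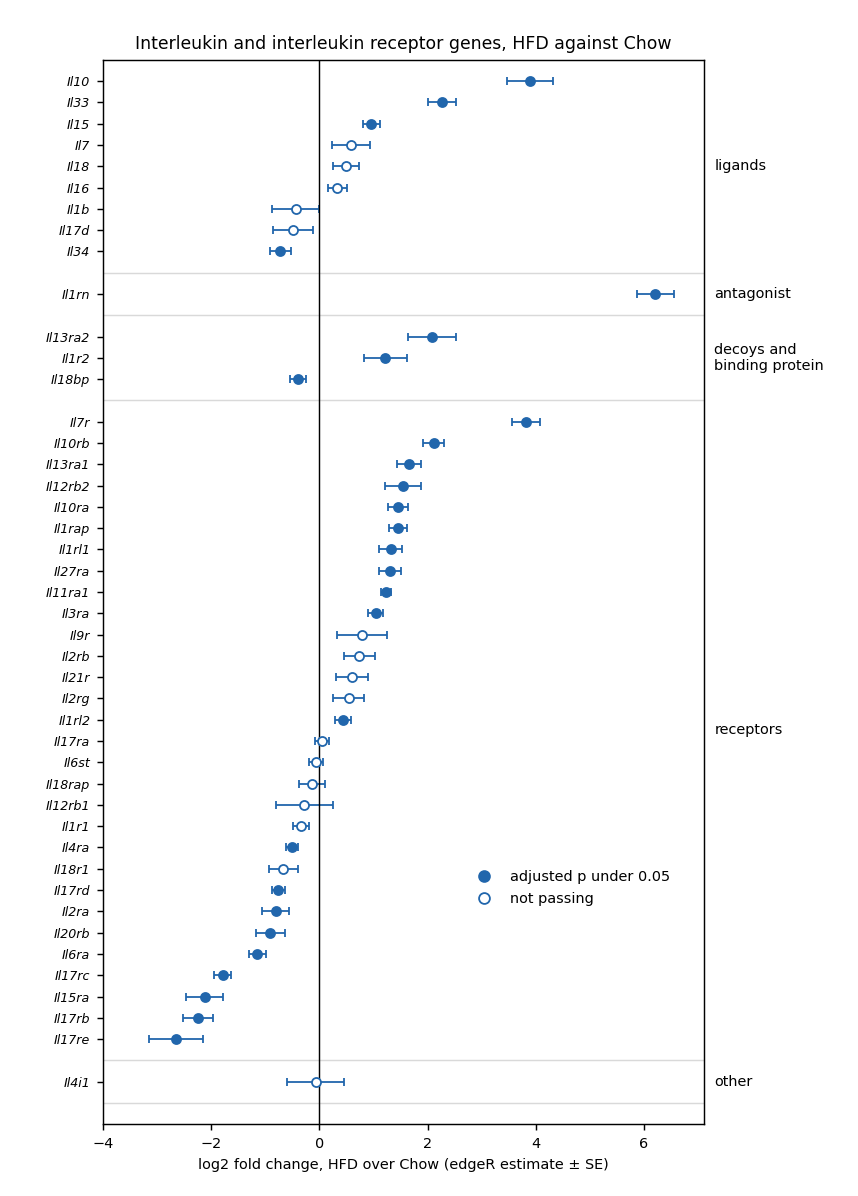
Log2 fold change of HFD over Chow (edgeR estimate, bars are its standard error) for the 44 tested members, by role. Filled points, 17 to the right and 11 to the left of 0, passed an adjusted p of 0.05, with Il1rn at 6.21 and Il17re at -2.65 at the ends.

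In the interleukin-1 family 6 of 12 tested members rose and 1 fell, beside 29.8% and 30% of all genes tested. Il1rn (ENSMUSG00000026981, chromosome 2, 24336853 to 24351494 in GRCm38) was at 130, 107 and 155 CPM in HFD 4, 30 and 38, against 2.77, 0.914 and 0.975 CPM in Chow fat 8, 17 and 19. Every HFD library lay far above every Chow library. The log2 fold change was 6.21 (SE 0.34, edgeR adjusted p = 8.07e-06), the largest among the members. Il1b, the secreted ligand that the antagonist competes with, was near the limit of measurement in both diets, at 0.409, 0.61 and 0.957 CPM in HFD fat and 1.09, 0.685 and 0.542 CPM in Chow fat. These groups overlapped and Il1b did not pass (log2 fold change -0.44, SE 0.43, edgeR adjusted p = 0.4). Its sister ligand Il1a had 17, 9 and 5 counts in HFD and 2 counts in each Chow library, too few for the test. The scaled ratio of its summed counts was 2.61, with an interval of 1.07 to 7.65 that covers counting error only, and 11.2% of its exon bases are overlapped by another gene.

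Both interleukin-1 ligands signal through Il1r1 with Il1rap. Il1r1 averaged 46.3 ± 7.35 CPM in HFD fat and 53.6 ± 8.16 CPM in Chow fat (SD, n = 3 each) and did not pass (edgeR adjusted p = 0.0731). Il1rap, which serves the receptors of interleukin-1, interleukin-33 and interleukin-36 alike, rose to 17.1 ± 1.3 CPM in HFD fat, against 5.67 ± 1.28 CPM in Chow fat (log2 fold change 1.45, SE 0.17, edgeR adjusted p = 1.90e-04). The decoy Il1r2 was low throughout, at 1.26, 1.22 and 0.837 CPM in HFD fat and 0.656, 0.305 and 0.325 CPM in Chow fat. It passed at an edgeR adjusted p of 0.0267 (log2 fold change 1.22, SE 0.39), a call that was lost under 6 of 15 alternatives, among them the fits without Chow 17, Chow 19, HFD 30 or HFD 4.

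The alarmin Il33 and its receptor Il1rl1 (ST2) rose together. Il33 was at 12.2, 12.2 and 11.5 CPM in HFD fat and 3.28, 1.45 and 2.06 CPM in Chow fat (log2 fold change 2.26, SE 0.26, edgeR adjusted p = 1.58e-04). Il1rl1 (ENSMUSG00000026069, chromosome 1, 40429570 to 40465415) was at 41.6, 39 and 33.3 CPM in HFD fat and 19.7, 11 and 11.1 CPM in Chow fat (log2 fold change 1.32, SE 0.21, edgeR adjusted p = 9.64e-04). For both genes the lowest HFD library lay above the highest Chow library. Il1rl1 stands on a list of markers of group 2 innate lymphoid cells used here, of which 2 of 4 tested genes rose and 2 fell, and is known to be made by mast cells as well. Il1rl2, the receptor of the interleukin-36 ligands, rose slightly (log2 fold change 0.44, SE 0.15, edgeR adjusted p = 0.0308), a call lost in 6 of 16 alternatives, including the fits without Chow 17, Chow 19, HFD 30 or HFD 4.

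Interleukin-18 and its partners showed small differences. Il18 averaged 4.4 ± 0.981 CPM in HFD fat and 2.86 ± 0.0833 CPM in Chow fat and did not pass (edgeR adjusted p = 0.1), nor did the receptor chains Il18r1 (edgeR adjusted p = 0.0609) and Il18rap (0.636). Il18bp fell to 8.67 ± 0.759 CPM in HFD fat, against 10.4 ± 0.721 CPM in Chow fat (log2 fold change -0.40, SE 0.15, edgeR adjusted p = 0.0477). That call was lost in 12 of 16 alternatives, DESeq2 and limma-voom included, and in each fit without one of the HFD libraries, Chow 17 or Chow 19. Enzymes and sensors that mature interleukin-1 and interleukin-18 were a list of 14 genes, of which 12 rose and 1 fell (median log2 fold change 1.46). Casp1, the protease that cleaves both precursors, rose to 66.8 ± 6.86 CPM in HFD fat, against 8.8 ± 1.76 CPM in Chow fat, and Nlrp3, a sensor, to 3.73 ± 0.458 CPM in HFD fat, against 1.98 ± 0.119 CPM in Chow fat. The summed level of the 14 genes did not separate the diets, at 2057 to 2173 CPM in HFD fat and 1720 to 2622 CPM in Chow fat.

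The receptors of the interleukin-1 family lie side by side on chromosome 1, from Il1r2 (start 40074079) through Il1r1, Il1rl2, Il1rl1 and Il18r1 to Il18rap (end 40551705). Neighbours did not move as a block: Il1r2, Il1rl2 and Il1rl1 rose, while Il1r1, Il18r1 and Il18rap did not pass. Il1rl1 and Il18r1 are separated by 136 bases, with log2 fold changes of 1.32 and -0.67.

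Ligands, receptors and the decoy of the interleukin-4, interleukin-13 and common gamma chain family moved in both directions. Of 12 tested members 4 rose (the receptors Il7r and Il13ra1, the ligand Il15 and the decoy Il13ra2) and 3, all receptors, fell. Of all genes tested 29.8% rose and 30% fell, and nothing is read from the number of members here. Il7r (ENSMUSG00000003882, chromosome 15, 9505788 to 9530176), which binds interleukin-7 and, paired with Crlf2, thymic stromal lymphopoietin, was at 161, 172 and 154 CPM in HFD fat and 15.7, 8.68 and 6.93 CPM in Chow fat. That is a gap of about an order of magnitude with no overlap (log2 fold change 3.82, SE 0.26, edgeR adjusted p = 1.62e-05). Crlf2, which is not a member by name, rose as well, to 42.9 ± 1.15 CPM in HFD fat, against 13.1 ± 0.95 CPM in Chow fat. Per kilobase of exon Il7r had the highest mean level of all members in HFD, at 34.8 CPM per kb, and ranked 19 in Chow at 2.24 CPM per kb. The ligand Il7 averaged 2.12 ± 0.106 CPM in HFD fat and 1.25 ± 0.665 CPM in Chow fat and did not pass (edgeR adjusted p = 0.177).

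Interleukin-15 and its receptor moved apart. Il15 rose to 15.3, 16.4 and 19.4 CPM in HFD fat, against 9.32, 6.7 and 7.91 CPM in Chow fat (log2 fold change 0.96, SE 0.16, edgeR adjusted p = 0.00115). Il15ra (ENSMUSG00000023206, chromosome 2, 11705290 to 11734317), the high-affinity chain that presents the ligand to other cells, fell to 24, 22.1 and 21.6 CPM in HFD fat, against 59.3, 64.1 and 146 CPM in Chow fat. The Chow libraries were uneven, with Chow 19 highest, yet none came near the HFD libraries (log2 fold change -2.12, SE 0.34, edgeR adjusted p = 9.32e-04). Il2ra, the high-affinity chain of the interleukin-2 receptor, ends 12096 bases before Il15ra starts and also fell, to 2.13 ± 0.366 CPM in HFD fat, against 3.37 ± 0.712 CPM in Chow fat (log2 fold change -0.81, SE 0.25, edgeR adjusted p = 0.0225). Its call was lost without Chow 8, HFD 30 or HFD 4 and with all 12 libraries in one fit, at an adjusted p of up to 0.241 over all alternatives. Il2rb, shared by the receptors of interleukin-2 and interleukin-15, was just above the threshold (log2 fold change 0.74, SE 0.29, edgeR adjusted p = 0.0522) and passed in 7 of 16 alternatives. Il2rg, Il9r and Il21r averaged 4.95, 1.73 and 2.44 CPM in HFD fat, against 3.11, 0.962 and 1.46 CPM in Chow fat, and did not pass; 30.5% of the exon bases of Il2rg are overlapped by another gene.

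Il4ra, which all receptors of interleukin-4 contain, fell modestly to 93.5 ± 5.83 CPM in HFD fat, against 121 ± 6.28 CPM in Chow fat (log2 fold change -0.51, SE 0.11, edgeR adjusted p = 0.00368). Its partner Il13ra1 rose to 29.9, 30.6 and 31.7 CPM in HFD fat, against 12, 8.91 and 5.53 CPM in Chow fat (log2 fold change 1.66, SE 0.22, edgeR adjusted p = 3.45e-04). The decoy Il13ra2 (ENSMUSG00000031289, chromosome X, 147383476 to 147429192) was at 2.68, 2.37 and 2.27 CPM in HFD fat and 0.874, 0.152 and 0.542 CPM in Chow fat (log2 fold change 2.08, SE 0.44, edgeR adjusted p = 0.00398). Decoy and signalling chain both rose, and every HFD library lay above every Chow library for each. Among 15 tested genes known to be induced by interleukin-4 and interleukin-13 in mouse macrophages 9 rose and 3 fell (median log2 fold change 1.31). Egr2, a transcription factor, rose to 34.8 ± 1.94 CPM in HFD fat, against 2.48 ± 0.399 CPM in Chow fat. Arg1, arginase 1, rose to 7.13 ± 0.673 CPM in HFD fat, against 0.661 ± 0.374 CPM in Chow fat, while Retnla, a secreted resistin-like protein, fell to 7.33 ± 2.26 CPM in HFD fat, against 108 ± 97.4 CPM in Chow fat.

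Il10, an anti-inflammatory ligand, and both chains of its receptor rose. Il10 (ENSMUSG00000016529, chromosome 1, 131019845 to 131024974) was at 2.79, 2.08 and 2.09 CPM in HFD fat and 0.219, 0.0761 and 0.108 CPM in Chow fat, where the 3 libraries hardly registered it (log2 fold change 3.89, SE 0.42, edgeR adjusted p = 1.31e-04). The ligand-binding chain Il10ra rose to 90.9 ± 3.11 CPM in HFD fat, against 30.4 ± 7.78 CPM in Chow fat (log2 fold change 1.45, SE 0.18, edgeR adjusted p = 2.27e-04). The shared chain Il10rb rose to 95.5 ± 6.15 CPM in HFD fat, against 20.1 ± 6.11 CPM in Chow fat (log2 fold change 2.11, SE 0.20, edgeR adjusted p = 6.25e-05), with 14.9% of its exon bases also covered by another gene. Il20rb, a chain of the receptors of interleukin-20 and related ligands, fell to 3.59 ± 0.511 CPM in HFD fat, against 6.27 ± 2.09 CPM in Chow fat (log2 fold change -0.91, SE 0.27, edgeR adjusted p = 0.0194). That call was lost without HFD 38 or HFD 4 and with all 12 libraries in one fit.

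Receptors of the interleukin-6 and interleukin-12 families were split. Il6st, the signalling chain shared by interleukin-6, interleukin-11 and leukemia inhibitory factor, had the highest mean level per kilobase in Chow and the next highest in HFD, and did not pass: it was at 391, 389 and 361 CPM in HFD fat and 387, 383 and 315 CPM in Chow fat (edgeR adjusted p = 0.715). The ligand-binding chain Il6ra fell to 85.6, 88.1 and 78.3 CPM in HFD fat, against 152, 147 and 211 CPM in Chow fat (log2 fold change -1.15, SE 0.16, edgeR adjusted p = 4.89e-04). Other ligand-binding chains that work with gp130 rose: Il11ra1 to 79.7 ± 2.77 CPM in HFD fat, against 31 ± 1.39 CPM in Chow fat (log2 fold change 1.23, SE 0.09), and Il27ra to 16.2 ± 0.915 CPM in HFD fat, against 6.07 ± 1.7 CPM in Chow fat (log2 fold change 1.30, SE 0.20). Il12rb2, a chain of the interleukin-12 receptor, rose to 1.18 ± 0.0257 CPM in HFD fat, against 0.368 ± 0.0718 CPM in Chow fat, but 40% of its exon bases are overlapped by another gene. Its partner Il12rb1 averaged 0.682 CPM in HFD fat and 0.808 CPM in Chow fat and did not pass. Among 15 tested genes known to be induced by interleukin-6 or interleukin-1, 5 rose and 4 fell (median log2 fold change 0.23), beside 29.8% and 30% of all genes tested. Orm3, an acute-phase orosomucoid, fell to 0.531 ± 0.164 CPM in HFD fat, against 24.1 ± 10.6 CPM in Chow fat (log2 fold change -5.67, SE 0.40), while Junb, an AP-1 subunit, rose to 52.7 ± 4.47 CPM in HFD fat, against 13.3 ± 0.258 CPM in Chow fat. Socs3, a feedback inhibitor of gp130, rose to 13.5 ± 0.718 CPM in HFD fat, against 7.56 ± 1.9 CPM in Chow fat (log2 fold change 0.70, SE 0.20).

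In the interleukin-17 family 4 of 6 tested members fell and none rose, beside 30% and 29.8% of all genes tested. Il17re (ENSMUSG00000043088, chromosome 6, 113458484 to 113470758), the receptor of epithelial interleukin-17C, was at 1, 1.4 and 0.419 CPM in HFD fat and 8.74, 5.56 and 2.49 CPM in Chow fat (log2 fold change -2.65, SE 0.50, edgeR adjusted p = 0.0023). Il17rc, the partner chain for interleukin-17A and interleukin-17F, starts 668 bases after it on the same strand and was at 11, 12.5 and 13 CPM in HFD fat and 38.7, 30.7 and 45.9 CPM in Chow fat (log2 fold change -1.79, SE 0.16, edgeR adjusted p = 5.74e-05). Il17rb, the receptor of interleukin-25, was at 0.892, 1.08 and 0.897 CPM in HFD fat and 3.2, 4.49 and 4.88 CPM in Chow fat (log2 fold change -2.24, SE 0.28, edgeR adjusted p = 2.44e-04). In all 3 genes the highest HFD library stayed below the lowest Chow library. Il17rd, also known as an inhibitor of fibroblast growth factor signalling, fell to 17.2 ± 0.374 CPM in HFD fat, against 26.6 ± 3.7 CPM in Chow fat (log2 fold change -0.76, SE 0.12). The shared chain Il17ra averaged 29.5 ± 2.76 CPM in HFD fat and 25.9 ± 3.67 CPM in Chow fat and did not pass (edgeR adjusted p = 0.748), and the ligand Il17d averaged 1.4 and 1.78 CPM in HFD fat and Chow and did not pass either.

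Of the remaining members, Il3ra, the interleukin-3 receptor, rose to 20 ± 0.983 CPM in HFD fat, against 8.87 ± 1.27 CPM in Chow fat (log2 fold change 1.04, SE 0.14, edgeR adjusted p = 4.16e-04). Il34, a ligand of the receptor Csf1r that keeps some tissue macrophages alive, fell to 8.95, 11.3 and 10.3 CPM in HFD fat, against 19.9, 12.1 and 14.2 CPM in Chow fat (log2 fold change -0.72, SE 0.19, edgeR adjusted p = 0.0109). That call was lost without HFD 4 and with all 12 libraries in one fit. Csf1r itself rose to 742 ± 39.9 CPM in HFD fat, against 153 ± 53.5 CPM in Chow fat, with 15.1% of its exon bases also covered by another gene. Il16, a ligand of CD4 cut from a larger precursor, averaged 34.8 ± 1.54 CPM in HFD fat and 25.2 ± 7.58 CPM in Chow fat and did not pass (edgeR adjusted p = 0.152), with 17.4% of its exon bases overlapped. Il4i1 did not pass, and 86.3% of its exon bases lie under another gene, so its counts are uncertain.

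**Figure D3:**
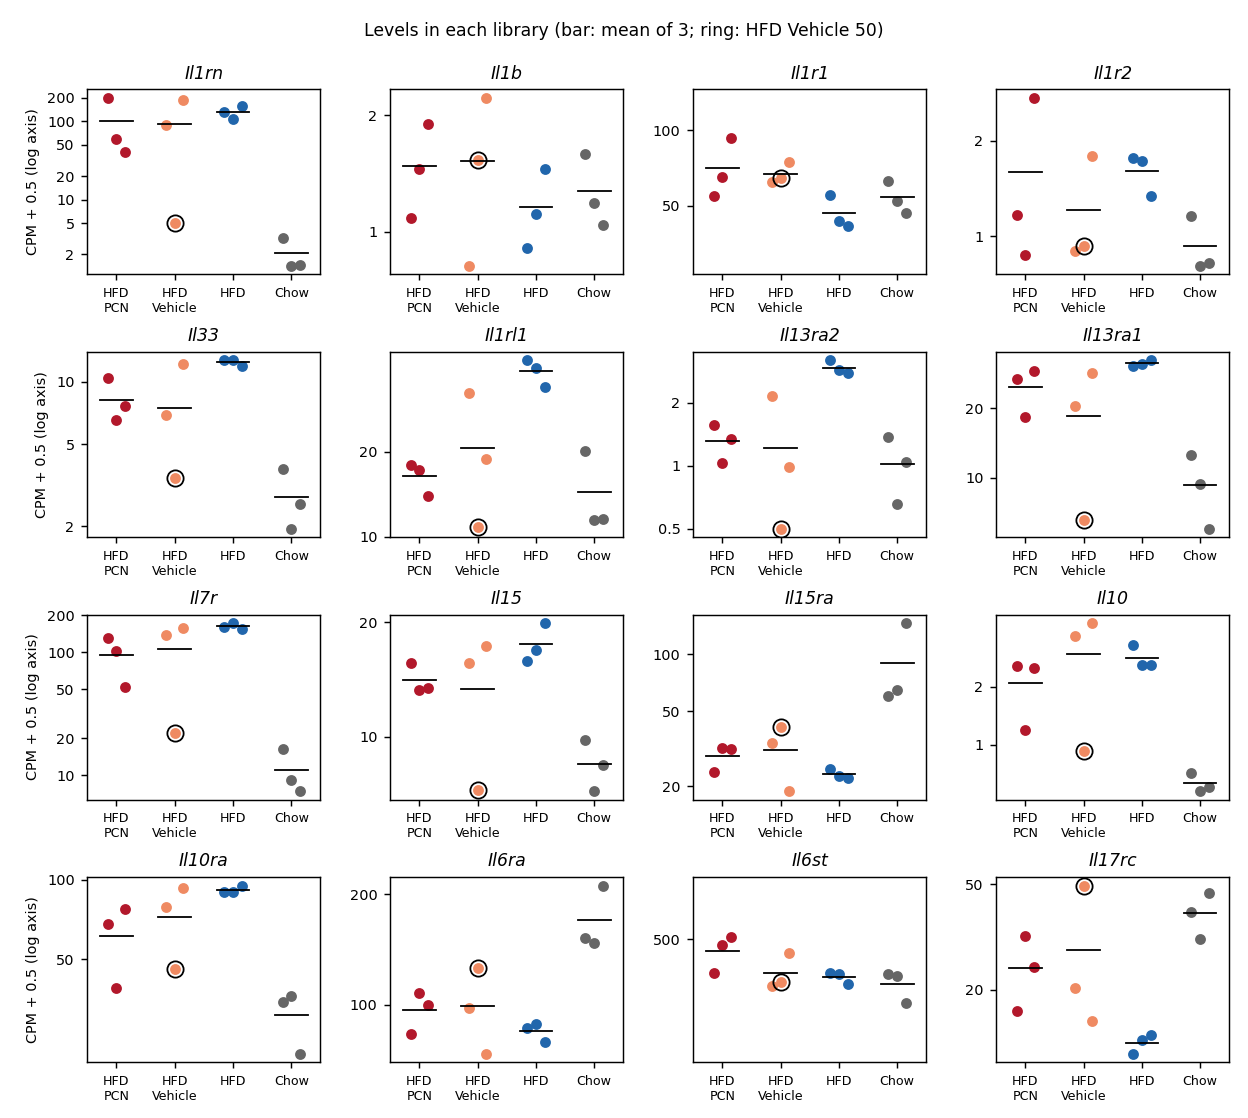
Level of 16 members in each library, as CPM + 0.5 on a log axis, with a bar at the mean of 3 libraries and a ring around HFD Vehicle 50. Il1rn and Il7r are low in Chow and in HFD Vehicle 50, at 4.46 and 21.7 CPM there, while Il6st differs little between groups.

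The start regions of 4 members with large differences are shown because genes that rise or fall together can be compared for shared letters there. Each is the stretch of 250 bases before a RefSeq start site of GRCm38.p6, written 5′ to 3′ on the strand of the gene, and RefSeq lists further start sites for Il1rn and Il15ra. Capitals mark matches on either strand to an AP-1 motif (TGANTCA), a STAT motif (TTCNNNGAA) or a PU.1 core (GAGGAA); motifs could overlap. They are Il1rn at chr2:24336610-24336859 (plus strand), Il7r at chr15:9529877-9530126 (minus), Il13ra2 at chrX:147429193-147429442 (minus) and Il15ra at chr2:11705043-11705292 (plus). By the gene positions given above, Il7r begins at 9530176 on its strand, so its whole stretch lies inside the gene as annotated there.
Il1rn: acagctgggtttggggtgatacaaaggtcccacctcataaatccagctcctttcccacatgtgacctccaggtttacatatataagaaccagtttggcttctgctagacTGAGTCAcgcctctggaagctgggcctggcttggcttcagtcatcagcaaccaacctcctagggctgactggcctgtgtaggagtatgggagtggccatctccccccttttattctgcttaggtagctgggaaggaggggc
Il7r: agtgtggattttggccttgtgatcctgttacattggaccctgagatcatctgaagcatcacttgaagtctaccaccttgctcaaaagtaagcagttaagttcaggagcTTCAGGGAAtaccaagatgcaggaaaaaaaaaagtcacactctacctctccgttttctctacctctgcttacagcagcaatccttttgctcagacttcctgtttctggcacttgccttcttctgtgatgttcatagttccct
Il13ra2: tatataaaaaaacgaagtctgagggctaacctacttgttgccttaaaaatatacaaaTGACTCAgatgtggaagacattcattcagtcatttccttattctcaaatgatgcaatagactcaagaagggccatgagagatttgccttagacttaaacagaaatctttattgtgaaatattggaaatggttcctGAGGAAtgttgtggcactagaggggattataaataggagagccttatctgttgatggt
Il15ra: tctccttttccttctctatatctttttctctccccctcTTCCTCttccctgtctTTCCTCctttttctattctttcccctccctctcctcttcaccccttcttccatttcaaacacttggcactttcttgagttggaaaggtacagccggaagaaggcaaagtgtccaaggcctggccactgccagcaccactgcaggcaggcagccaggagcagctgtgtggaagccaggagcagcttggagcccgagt

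The Il1rn stretch held an AP-1 match at -141 to -135 from the start, the Il7r stretch a STAT match at -142 to -134, and the Il13ra2 stretch an AP-1 match at -193 to -187 and a PU.1 core at -58 to -53. The Il15ra stretch held the PU.1 core on the other strand at -212 to -207 and -196 to -191, and the region before its second RefSeq start, not printed, held an AP-1 match at -30 to -24. The regions before starts 2 and 3 of Il1rn, also not printed, held none of these motifs. Neither did those before starts 1 and 2 of Il33, another member that rose. RefSeq start regions were found for 59 of the 73 members, 74 regions in all. Of these 27% held the PU.1 core, 14.9% the AP-1 motif and 12.2% the STAT motif, beside 23.3%, 6.75% and 7.02% of all 32851 regions of this length. No motif was common to the 3 printed members that rose, and a match is a string of letters, not a site shown to be bound.

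Many ligands had too few counts for the test, so they are given as counts in HFD 4, 30 and 38 and in Chow 8, 17 and 19. Il12b, the shared subunit of interleukin-12 and interleukin-23, had 20, 18 and 14 counts in HFD, against 0, 2 and 0 in Chow, a scaled ratio of 13.1 with an interval of 3.45 to 111. Il1f9, which encodes interleukin-36 gamma, had 14, 12 and 13 counts in HFD, against 1, 2 and 2 in Chow, a ratio of 3.94 with an interval of 1.55 to 12.8. Both were higher in every HFD library than in any Chow library. Il5ra, the interleukin-5 receptor and an eosinophil marker, had 11, 16 and 4 counts in HFD, against 2, 1 and 0 in Chow, a ratio of 5.22 with an interval of 1.63 to 26.7. Il22ra2, a soluble decoy for interleukin-22, went the other way, with 8, 9 and 1 counts in HFD against 17, 8 and 5 in Chow, a ratio of 0.303 with an interval of 0.159 to 0.561. These intervals cover counting error only, not the spread between libraries. The list of eosinophil markers, which includes Il5ra, summed to 16.4 to 20.4 CPM in HFD fat and 2.82 to 20.8 CPM in Chow fat. These ranges overlapped. Of its 3 tested genes 2 rose and 0 fell, beside 29.8% and 30% of all genes tested.

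Il6, the best known inflammatory interleukin of fat, had 2, 5 and 6 counts in HFD and 1, 3 and 2 in Chow, and the interval of its ratio, 0.388 to 3.51, includes no difference. Il4 had 6, 4 and 3 counts in HFD and 0, 4 and 0 in Chow, with an interval of 0.507 to 6.91. Il5, which eosinophils depend on, had 2 counts in HFD 4 and 0 in the other 5 libraries, with 27.1% of its exon bases overlapped. At this depth no difference in these ligands was detectable between the diets. Il12a, Il23a, Il2, Il21, Il17f, Il17b, Il27 and Il11 had no more than 7 counts in any of these 6 libraries.

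Pairs of a ligand, antagonist or decoy with its receptor or partner were compared as the log2 ratio of their counts within a library, with 0.5 added to both. No scaling factor enters this ratio. Where a count is near 0, as for Il10 with 3, 1 and 1 counts in Chow, the added 0.5 makes the ratio depend on the depth of the library. For 13 of 18 pairs the HFD and Chow libraries did not overlap, each at the smallest exact two-sided permutation p of 0.1 that 3 against 3 allows (0.138 adjusted over 18 pairs), so no pair could pass 0.05. Of all single genes 68.7% did not overlap between these groups, and nothing is read from the number of pairs. Il1rn over Il1b stood at 8.25, 7.41 and 7.29 in HFD and 1.31, 0.40 and 0.79 in Chow, a difference of 6.82. Il1rn counts exceeded Il1b counts in each of these libraries, by more in HFD. Il1rn has more exon bases (5535, against 1907 for Il1b), and per kilobase its mean level was 23.6 CPM in HFD and 0.28 CPM in Chow, beside 0.345 and 0.405 CPM for Il1b, so that in Chow the antagonist was not above the ligand on this scale. Il15 over Il15ra stood at -0.65, -0.43 and -0.16 in HFD and -2.66, -3.25 and -4.20 in Chow, a difference of 2.96. Il7 over Il7r stood at -6.31, -6.31 and -6.11 in HFD and -2.98, -2.89 and -3.31 in Chow, a difference of -3.18, so the receptor gained on its ligand.

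Il34 over Csf1r averaged -6.19 in HFD and -3.27 in Chow, and Il10 over Il10ra -5.29 in HFD and -7.47 in Chow. Il33 over Il1rl1 averaged -1.66 in HFD and -2.62 in Chow, so the ligand gained on its receptor although both rose. Il1r2 over Il1r1, the decoy over the signalling receptor, averaged -5.37 in HFD and -6.89 in Chow, with the decoy far below the receptor in both. Il18bp over Il18 averaged 0.99 in HFD and 1.85 in Chow. Il13ra2 over Il13ra1 averaged -3.65 ± 0.16 in HFD and -4.17 ± 1.23 in Chow (SD, n = 3 each), where the libraries overlapped (exact permutation p = 0.8).

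**Figure D4:**
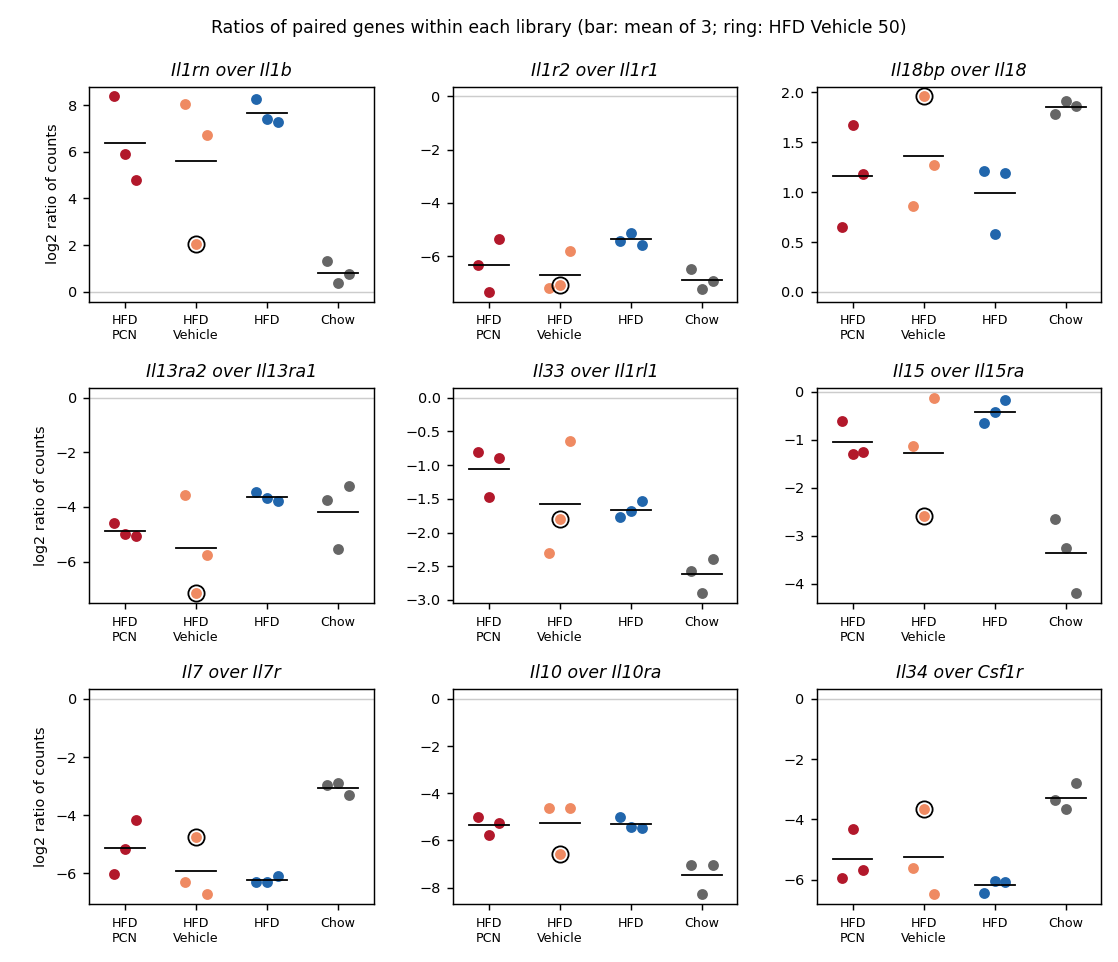
Log2 ratio of the counts of 9 pairs of genes in each library, with a bar at the mean of 3 libraries and a ring around HFD Vehicle 50. HFD and Chow do not overlap except for Il13ra2 over Il13ra1, and HFD PCN and HFD Vehicle overlap for every pair.

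Downstream of the receptors, a list of 24 cytosolic signalling genes had 23 in the diet table, of which 5 rose and 8 fell (median log2 fold change -0.25). Of all genes tested 29.8% rose and 30% fell, and nothing is read from the number of genes in this list or those that follow. Myd88, the adaptor of interleukin-1 family receptors, rose to 32.1 ± 1.17 CPM in HFD fat, against 17.8 ± 1.41 CPM in Chow fat, with 11.3% of its exon bases overlapped. Irak2, a kinase of the same complex, fell to 72.8 ± 3.43 CPM in HFD fat, against 194 ± 20.4 CPM in Chow fat. Of 17 feedback inhibitors of cytokine receptors 4 rose and 5 fell (median 0.07). Ptpn6, a phosphatase of blood cells, rose to 85.9 ± 0.493 CPM in HFD fat, against 10 ± 4.16 CPM in Chow fat, and Cish, induced by STAT5, fell to 1.91 ± 0.275 CPM in HFD fat, against 6.65 ± 3.13 CPM in Chow fat, with 11.5% of its exon bases overlapped. Of 18 tested cytokines and receptor subunits of the same families that carry other names, 7 rose and 5 fell (median 0.19). Ebi3, the partner of Il27, rose to 4.39 ± 0.48 CPM in HFD fat, against 0.796 ± 0.208 CPM in Chow fat, with 23.4% of its exon bases overlapped. Cd4, the receptor of Il16, averaged 3.92 ± 2.24 CPM in HFD fat and 1.69 ± 0.855 CPM in Chow fat and did not pass.

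The second comparison set HFD PCN against HFD Vehicle, which asks what PCN changed in obese mice. With edgeR 0 of 45 members reached an adjusted p of 0.05, and 0% of all 16563 genes did. An unadjusted p under 0.05 was reached by 2 members (4.44%), against 1.7% of all genes, and DESeq2 and limma-voom called 0 members. The spread within the injected groups was wide: Il1rn was at 200, 59.4 and 39.6 CPM in HFD PCN 5, 11 and 27, against 89.4, 4.46 and 186 CPM in HFD Vehicle 23, 50 and 55. Il7r was at 130, 101 and 51.5 CPM in HFD PCN, against 138, 21.7 and 158 CPM in HFD Vehicle. For both genes HFD Vehicle 50 was lowest and the groups overlapped. The 12 macrophage genes summed to 6357, 2726 and 6424 CPM in HFD PCN 5, 11 and 27, against 6331, 975 and 6798 CPM in HFD Vehicle 23, 50 and 55. Their part in the spread of Il1rn and Il7r was not tested.

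The 2 members with an unadjusted p under 0.05 were Il17rb, which was at 0.515, 0.9 and 0.726 CPM in HFD PCN, against 1.19, 2.31 and 1.19 CPM in HFD Vehicle (log2 fold change -1.14, SE 0.45, edgeR adjusted p = 1), and Il7, which was at 1.98, 2.81 and 2.85 CPM in HFD PCN, against 1.74, 0.771 and 1.46 CPM in HFD Vehicle (log2 fold change 0.90, SE 0.36, edgeR adjusted p = 1). Neither pair of groups overlapped. Without HFD Vehicle 50 the log2 fold changes were -0.74 and 0.67, the unadjusted p rose to 0.101 and 0.0728, and 5 of 46 members (10.9%) had an unadjusted p under 0.05, against 5.32% of all genes. None of the 46 passed after adjustment with edgeR, and DESeq2, in a setting chosen after seeing the data, called 0 members. In the uninjected HFD libraries Il17rb was at 0.892, 1.08 and 0.897 CPM and Il7 at 2.01, 2.15 and 2.21 CPM. For both genes the HFD libraries overlapped those of HFD PCN but not those of HFD Vehicle. Il1f9, too low to test, had 12, 7 and 14 counts in HFD PCN, against 1, 0 and 4 in HFD Vehicle, or 5.72 times as much after scaling (counting interval 2.22 to 18.8). The uninjected HFD libraries had 14, 12 and 13 counts, and HFD Vehicle over HFD gave a ratio of 0.165 (counting interval 0.0509 to 0.42), so HFD Vehicle was the low group of the 3. Il6 had 12, 0 and 15 counts in HFD PCN, against 3, 6 and 31 in HFD Vehicle. Il13, counted in the PCN table only, had 0 counts in each HFD PCN library, against 1, 1 and 2 in HFD Vehicle. None of 18 pairs of genes separated HFD PCN from HFD Vehicle, and 0 genes of the companion and marker lists passed with edgeR.

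HFD Vehicle was also set against HFD, on libraries that serve the first 2 comparisons too. Of 45 members 0 passed with edgeR, as did 0% of all 16781 genes, and 4 members (8.89%) had an unadjusted p under 0.05, against 9.77% of all genes. Without HFD Vehicle 50 there were 10 of 46 (21.7%), against 16.7% of all genes, and 0 passed after adjustment. The 4 were Il17rc, Il1rl1, Il1r1 and Il12b. Il1r1 was at 61.4, 64 and 74.4 CPM in HFD Vehicle, against 54.7, 43.1 and 41.1 CPM in HFD fat, without overlap (log2 fold change 0.59, SE 0.16, edgeR adjusted p = 0.485). Without HFD Vehicle 50 its log2 fold change was 0.56 (edgeR adjusted p = 0.117), and in a setting added after seeing the data DESeq2 called it higher (adjusted p = 0.0194) and Il16 lower (log2 fold change -0.43, DESeq2 adjusted p = 0.022). The log2 fold change of Il17rc was 1.29 with HFD Vehicle 50 and 0.53 without it. Il22ra1, the interleukin-22 receptor known from epithelia, was too low to test, with 5, 12 and 2 counts in HFD Vehicle, against 2, 0 and 1 in HFD (ratio 8.17, counting interval 2.4 to 43.1). It had 16, 3 and 13 counts in HFD PCN (ratio to HFD 11.9, counting interval 3.73 to 60.8).

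In HFD PCN against HFD, also on shared libraries, 2 of 46 members (4.35%) passed with edgeR, both lower, against 4.32% of all 16927 genes, 2.97% of them higher and 1.35% lower. Il1rl1 fell to 17.5, 16.8 and 13.4 CPM in HFD PCN, against 41.6, 39 and 33.3 CPM in HFD fat (log2 fold change -1.23, SE 0.13, edgeR adjusted p = 0.0172), a level close to the 13.9 ± 4.98 CPM of Chow. Il13ra2 fell to 1.07, 0.529 and 0.837 CPM in HFD PCN, against 2.68, 2.37 and 2.27 CPM in HFD fat (log2 fold change -1.54, SE 0.27, edgeR adjusted p = 0.0327). Neither gene separated HFD PCN from HFD Vehicle, where Il1rl1 was at 31.8, 10.3 and 18.3 CPM and Il13ra2 at 1.66, 0 and 0.485 CPM. Of 9 mast cell genes 6 fell in the same comparison, with a summed level of 48.5 to 91.4 CPM in HFD PCN and 260 to 362 CPM in HFD fat, 27.1 to 167 CPM in HFD Vehicle and 20.9 to 39.8 CPM in Chow fat. Cpa3, a mast cell protease, was at 10.2 ± 6.17 CPM in HFD PCN and 68.6 ± 10.7 CPM in HFD. The part of mast cells in the 2 results was not tested.

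Both calls were lost without HFD PCN 27 or any of the HFD libraries and with all 12 libraries in one fit. The edgeR adjusted p reached 0.239 for Il1rl1 and 0.462 for Il13ra2 over the alternatives. Of all genes, 732 passed in the main fit, 4 without HFD PCN 27, 1 without HFD 30 and 0 without HFD 4 or HFD 38. Over the alternatives the log2 fold change was -1.32 to -1.12 for Il1rl1 and -1.79 to -1.32 for Il13ra2. Without HFD PCN 5 there were 15 calls among 45 members (33.3%), near the 31% of all 16688 genes called in that fit. The 6 higher in HFD PCN (13.3%, against 16.3% of all genes) were Il15ra, Il17rc, Il1r1, Il2ra, Il6ra and Il6st, and the 9 lower (20%, against 14.7% of all genes) were Il10rb, Il11ra1, Il13ra2, Il1rap, Il1rl1, Il1rn, Il27ra, Il33 and Il7r. Of the injected libraries HFD PCN 5 had the lowest median absolute log2 difference over 41 members from the HFD mean, at 0.224, with HFD PCN 11 and 27 at 0.491 and 0.445.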

How the data were processed

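The authors deposited 2 tables of raw gene counts, 1 for HFD and Chow and 1 for HFD PCN and HFD Vehicle, with their own log2 fold changes and p-values; those p-values serve here only as an alternative. The tools HISAT2, HTSeq and DESeq2 and the build GRCm38 (mm10) are named, per the submitters' processing notes; versions and the strand setting are not given in the sources used here. Depth was 11090117 to 27408092 counts per library, so members of a few counts are given with 95% intervals for counting error only.

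Members, companion gene lists and tests were chosen with earlier results of these data known. Members with a mean of at least 1 CPM in any group, and members of the pairs, were named with values, as were up to 4 genes of each companion list with the smallest p, always including the first, and a short fixed set, of which 1 gene is not reported here. Counts were tested with edgeR 4.0.16 (quasi-likelihood, TMM, filterByExpr, Benjamini-Hochberg adjustment over all genes tested) in R 4.3.3, each comparison on its own 6 libraries. The test was checked on simulated data. Levels are CPM scaled with TMM over 12 libraries; fitted log2 fold changes of HFD over Chow lie lower than ratios of these levels by a shift of -0.13. Alternatives were DESeq2 1.42.0, limma-voom (limma 3.58.1), other scalings, filters and thresholds, all 12 libraries in one fit, and leaving out each library. DESeq2 and limma-voom without HFD Vehicle 50 and the 12-library TMM factors were added after seeing the data. The labels do not say that libraries came from separate animals, so p-values cover only the spread among these samples, which may be technical. Gene positions and overlaps are from GENCODE M21, start regions from RefSeq.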

Additional observations from a re-analysis of the deposited data

How the results depend on the processing

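Of the 28 members called in HFD against Chow, 20 kept the call in all alternatives (15 higher, 5 lower) and 0 changed direction. Leaving out 1 library at a time gave 23 to 31 called members, 15 to 21 higher and 8 to 10 lower, and 7953 to 10889 genes in all. With all 12 libraries in one fit 5 members were lower. Il4ra and Il17rd lost the call there alone, at an edgeR adjusted p of 0.133 and 0.0937.

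In HFD PCN against HFD Vehicle 0 genes passed with edgeR in any fit that left out 1 library, 1 passed with DESeq2, 42 with DESeq2 without HFD Vehicle 50 and 2 in the authors' deposited table, none of the 42 a member. In HFD Vehicle against HFD, DESeq2 called 91 genes, and leaving out 1 library gave 0 to 172 genes with edgeR, the 172 without HFD Vehicle 50. Without that library DESeq2 called 708 genes and 2 members, 1 higher and 1 lower, and limma-voom 158 genes.

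HFD PCN against HFD depended most on the setting. DESeq2 called 2385 genes and 8 members (2 higher, 6 lower), no filter 1296 genes and 5 members (2 higher), all 12 libraries in one fit 0 genes and 0 members (0 lower), and an adjusted p of 0.1 2713 genes and 9 members (2 higher, 7 lower). Leaving out 1 library gave 0 to 5167 genes and 0 to 15 members (0 to 6 higher, 0 to 9 lower), the highest without HFD PCN 5. The causes were not tested. No paired analysis was possible because the library numbers differ in every sample.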
